A study of Mus musculus with 8 samples.

Results

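The genes described here encode the proteins of the mitochondrial ribosome, chosen as every gene in the count table whose symbol is Mrpl or Mrps followed by a number, with an a, b or c allowed after the number for Mrps. The rule found 76 of the 25815 genes in the table, with no symbol repeated, and used no measured value. They were measured by RNA-seq of poly(A)+ RNA from whole brains of 8 mice, 5 carrying the D50A substitution in the RNA recognition motif of CSTF2 and 3 wild-type (WT) littermates, all aged 50 days. CSTF2 is the subunit of the cleavage stimulation factor that binds the pre-mRNA downstream of the poly(A) signal, where the 3′ end is cut. Both groups were untreated and came from 1 colony on the C57BL/6NCrl background, backcrossed for 4 generations and then bred among themselves, per the labels' protocols. Each library is from a separate animal. The labels name no promoter or Cre that would limit the change to a cell type, and counts per gene do not show the changed codon. The comparison addresses whether brain transcript levels of these genes differ between D50A and WT mice.

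The mitochondrial ribosome translates the few mRNAs of the mitochondrial genome, all of which encode subunits of the respiratory chain and the ATP synthase. Its rRNAs are made in the organelle, while every one of its proteins is encoded in the nucleus, translated in the cytosol and imported. Some of these proteins descend from bacterial ribosomal proteins and others were added during mitochondrial evolution, and inherited loss of single members impairs oxidative phosphorylation, often in brain and heart. Of the 76 genes, 49 encode proteins of the large subunit and 26 proteins of the small subunit. Mrps36 carries the name of the family but its product is known as a subunit of the oxoglutarate dehydrogenase complex. The names of Mrps18a and Mrps30 place them in the small subunit, but their products sit in the large one and were counted there.

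The libraries held 13675945 (D50A 3) to 24802272 (D50A 1) counts, and the members received between 57 and 2292 counts each in any library, so all 76 passed the filter on low counts. D50A 3 stood apart from the other 7 libraries: 20.3% of the 16810 genes tested were 2-fold or more above the WT mean there and 52.9% were below it. Markers of neurons, astrocytes and mature oligodendrocytes were all detected in each library, as total brain should give. The 5 oligodendrocyte markers summed to 15950 CPM (counts scaled to the effective library size) in D50A 3 beside 7770 to 9278 CPM elsewhere, and the 5 blood markers to 2363 CPM against 306 to 548 CPM. The 5 astrocyte markers summed to 3024 CPM in D50A 3 and 1777 to 2090 CPM elsewhere, the 5 microglia markers to 355 CPM and 170.8 to 197.4 CPM. The 10 cerebellar markers summed to 715 to 1031 CPM in D50A 2 to 5, but to 114 CPM in D50A 1 and 93.0 to 102 CPM in the WT libraries, so cerebellar RNA moved with genotype except in D50A 1. WT 2 stood apart in pituitary markers, whose 3 genes summed to 836 CPM there and to 3.07 to 18.96 CPM in the other libraries. The part of these differences in the results was not tested, and in bulk tissue fewer cells of a type and less RNA per cell cannot be told apart. Results are therefore given with and without D50A 3.

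In WT brain the members took 0.191%, 0.202% and 0.199% of all counts. The levels differed widely between genes, from 5.51 ± 0.94 CPM for Mrps18b to 77.3 ± 2.80 CPM for Mrpl3 (mean ± SD, n = 3), a protein near the peptidyl transferase centre. Per kb of the longest annotated transcript, the highest WT levels belonged to Mrps21 (61.1 ± 3.75 CPM per kb), Mrpl41 (60.1 ± 1.31) and Mrpl20 (49.7 ± 3.82), and the lowest to Mrpl17 (3.60 ± 0.24), Mrps35 (3.33 ± 0.28) and Mrps30 (2.76 ± 0.23). Mrps21 and Mrpl41 did not differ beyond their spread, nor did Mrpl17 and Mrps35, and each of these pairs stood apart from Mrpl20 and Mrps30 respectively. The order depends on the transcript taken for length: that of Mrpl17 is 7300 bases long while its coding part has 528 bases. Mrpl33 had no matched position or length and was left out of this order of 75 genes. The spread between WT mice was small, with a median coefficient of variation of 5.73% over the 76 members and the largest, 17.0%, for the weakly expressed Mrps18b.

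By library, the family as a whole stood near the WT mean in 4 of the 5 D50A mice and far above it in D50A 3. The median member lay at a log2 ratio to the WT mean of -0.01 in D50A 1, 0.04 in D50A 2, 1.69 in D50A 3, 0.15 in D50A 4 and 0.07 in D50A 5. Each WT library, set against the mean of the other two, gave -0.06, 0.05 and 0.03. Of the D50A libraries without D50A 3, only D50A 4 thus lay above 0.1. D50A 1 and D50A 2, whose cerebellar markers summed to 114 and 729 CPM, both lay within the WT range. In D50A 4 the medians of related genes were above 0.1 too. They were 0.25 for nuclear oxidative phosphorylation genes, 0.20 for cytosolic ribosomal proteins and 0.17 for mitochondrially encoded mRNAs. The members' share of all counts was 0.200%, 0.205%, 0.477%, 0.223% and 0.214% in D50A 1 to 5.

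**Figure D1:**
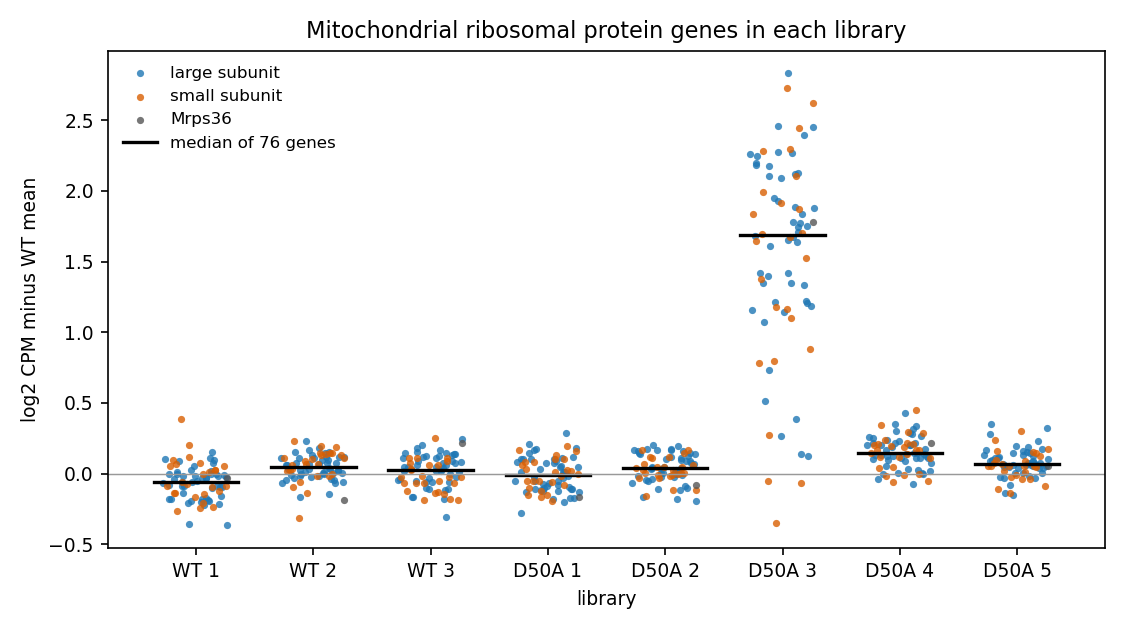
Log2 ratio of each of the 76 members to the WT mean CPM in each of the 8 libraries (a WT library is set against the mean of the other two); points are genes and bars are medians. The D50A 3 points spread around a median of 1.69, while the medians of the other 7 libraries lie between -0.06 and 0.15.

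In D50A 3 the members were at 3.22-fold the WT mean at the median, and they differed among themselves from a log2 ratio of -0.35 for Mrps2 to 2.83 for Mrpl12, with quartiles of 1.18 and 2.10. There 63 of 76 members (82.9%) were 2-fold or more above the WT mean, beside the 20.3% of all genes. Only 3 members (3.95%) lay below the WT mean, beside 52.9% of all genes: Mrps2, Mrps5 and Mrps18b, named after their values were seen. D50A 3 was the highest of the 8 libraries for 71 members and the lowest for 2. These counts depend on the scaling: the member median in D50A 3 was 1.69 with TMM, 1.78 with RLE, 1.82 with upper-quartile and 1.32 with library-total scaling, and 73, 75, 75 and 69 members lay above the WT mean. The median over all tested genes moved by as much, from -0.10 to -0.00, 0.03 and -0.46. Because a scaling shifts every gene of a library alike, the members stood 1.79 above that median under each scaling by construction. Since D50A 3 is 1 mouse, these are values of that library with no replicate.

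The stalk of the large subunit, which recruits translation factors, is built by Mrpl10, Mrpl11 and Mrpl12, and its 3 genes spread widely in D50A 3. Mrpl12 (mm10 chr11:120484613-120489065, plus strand) had 12.9, 16.5, 105, 19.8 and 16.1 CPM in D50A 1 to 5 and 13.4, 15.9 and 14.8 CPM in WT 1 to 3. Its value in D50A 3 was 7.15-fold the WT mean, the highest ratio of the family, while D50A 1 lay below every WT library. Mrpl11 had 34.3, 32.7, 124, 37.5 and 36.3 CPM in D50A 1 to 5 and 34.7, 34.8 and 34.6 CPM in WT 1 to 3, and Mrpl10, the base of the stalk, had 32.5, 29.1, 43.3, 30.2 and 29.7 CPM in D50A 1 to 5 and 31.5, 31.3 and 28.04 CPM in WT 1 to 3. In D50A 3 Mrpl11 was thus 3.58-fold and Mrpl10 1.43-fold the WT mean, and the other 4 D50A libraries overlapped the WT libraries for both.

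The 30 large-subunit members with bacterial homologs, stalk included, had a median log2 ratio of 1.79 in D50A 3, none of them below the WT mean. Mrpl20, which binds the large rRNA early in assembly, had 34.8, 38.7, 209, 43.9 and 39.5 CPM in D50A 1 to 5 and 34.6, 39.03 and 40.1 CPM in WT 1 to 3. Mrpl23, at the exit of the peptide tunnel, had 21.3, 22.7, 113, 20.9 and 25.9 CPM in D50A 1 to 5 and 20.4, 20.1 and 21.4 CPM in WT 1 to 3. In D50A 3 they were 5.52-fold and 5.48-fold the WT mean. Mrpl3 had 76.04, 80.01, 129, 80.3 and 75.7 CPM in D50A 1 to 5 and 74.2, 78.2 and 79.6 CPM in WT 1 to 3, 1.67-fold in D50A 3, and the other D50A libraries overlapped the WT ones. Mrpl17 was 3.36-fold and Mrpl28 4.35-fold the WT mean there.

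The 19 mitochondria-specific members of the large subunit had a median of 1.64 in D50A 3. Mrpl41 had 50.1, 46.04, 212, 54.4 and 56.6 CPM in D50A 1 to 5 and 46.6, 45.7 and 47.7 CPM in WT 1 to 3, and only D50A 2 lay within the WT range. Mrpl44, which has the fold of an RNase III enzyme and is needed for assembly, had 17.2, 14.4, 38.1, 17.2 and 16.1 CPM in D50A 1 to 5 and 14.9, 14.7 and 15.1 CPM in WT 1 to 3. Mrpl45, near the tunnel exit and the inner membrane, had 31.3, 28.9, 75.1, 30.04 and 30.6 CPM in D50A 1 to 5 and 26.6, 30.8 and 31.1 CPM in WT 1 to 3. Mrpl41 was 4.54-fold the WT mean in D50A 3, while Mrpl44 and Mrpl45 were close to each other at 2.56-fold and 2.55-fold. Mrps30, the longest member by coding length, was 2.34-fold there.

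In the small subunit the 16 members with bacterial homologs had a median of 1.67 and the 10 mitochondria-specific members a median of 1.53 in D50A 3. Mrps12, the homolog of the bacterial protein at the decoding site, had 26.9, 29.1, 66.5, 30.4 and 26.6 CPM in D50A 1 to 5 and 30.98, 30.2 and 26.9 CPM in WT 1 to 3. Mrps16 and Mrps22 are both known from inherited deficiencies of mitochondrial translation. Mrps16 had 17.6, 17.8, 76.9, 20.6 and 17.4 CPM in D50A 1 to 5 and 17.9, 18.98 and 16.6 CPM in WT 1 to 3, and Mrps22 had 13.98, 15.5, 62.1, 16.9 and 17.3 CPM in D50A 1 to 5 and 16.02, 14.8 and 15.7 CPM in WT 1 to 3. D50A 3 was high for all 3, at 2.27-fold, 4.31-fold and 4.002-fold the WT mean, and without it the D50A and WT values overlapped. Mrps21 was 4.91-fold, Mrps24 5.47-fold and Mrps35 3.21-fold the WT mean there. Mrps36, the oxoglutarate dehydrogenase subunit, was 3.44-fold the WT mean, inside the range of the ribosomal members.

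**Figure D2:**
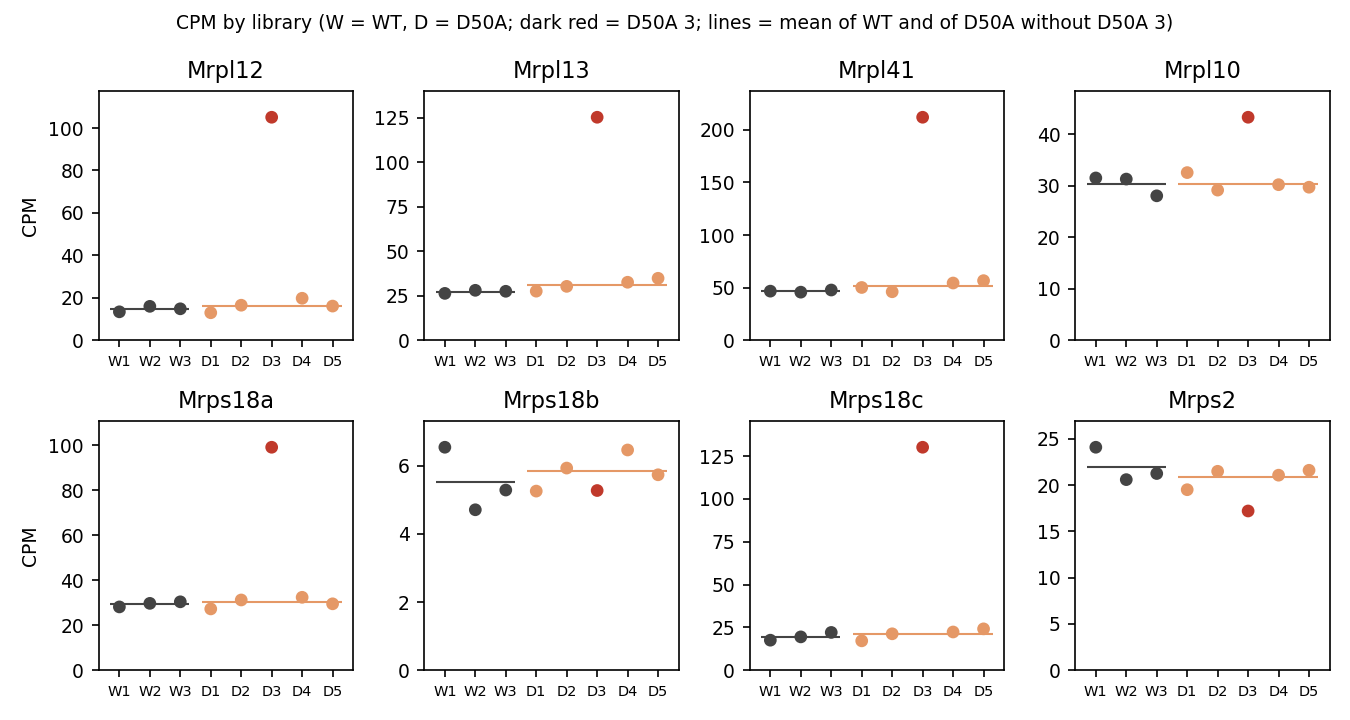
CPM (TMM-scaled, linear axis from 0 in each panel) of 8 members in the 3 WT and 5 D50A libraries; each point is 1 library, D50A 3 is dark red, and lines are the means of WT and of D50A without D50A 3. Mrpl12 in D50A 3 lies at 105 CPM against 12.9 to 19.8 CPM in the rest, and Mrps18b in D50A 3 lies among them.

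Mrps2 and Mrps5 form part of the small subunit around the mRNA channel and have bacterial homologs. Mrps2 (chr2:28468066-28471178, plus strand) had 19.5, 21.5, 17.2, 21.1 and 21.6 CPM in D50A 1 to 5 and 24.1, 20.6 and 21.3 CPM in WT 1 to 3, so D50A 3 was its lowest library. Mrps5 had 51.6, 50.95, 48.6, 50.6 and 52.5 CPM in D50A 1 to 5 and 51.4, 50.8 and 50.2 CPM in WT 1 to 3 and was also lowest in D50A 3, although its 8 libraries spanned only 48.6 to 52.5 CPM.

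The 3 Mrps18 genes are paralogs of 1 bacterial protein, and each product has its own place in the ribosome: that of Mrps18c replaces the bacterial protein, that of Mrps18b sits elsewhere in the small subunit and that of Mrps18a in the large one. Mrps18a (chr17:46110986-46128910, plus strand) had 27.2, 31.2, 99.2, 32.4 and 29.5 CPM in D50A 1 to 5 and 28.1, 29.7 and 30.4 CPM in WT 1 to 3. Mrps18b (chr17:35910379-35916389, minus strand) had 5.26, 5.93, 5.27, 6.46 and 5.74 CPM in D50A 1 to 5 and 6.54, 4.71 and 5.29 CPM in WT 1 to 3. Mrps18c (chr5:100798627-100804471, plus strand) had 17.1, 21.2, 130.2, 22.3 and 24.1 CPM in D50A 1 to 5 and 17.5, 19.4 and 22.04 CPM in WT 1 to 3. In D50A 3 the paralogs parted: Mrps18c was 6.62-fold and Mrps18a 3.37-fold the WT mean, while Mrps18b was 0.957-fold and within the range of the other libraries. The count ratio of Mrps18c to Mrps18b reached 24.7 in D50A 3, beside 3.26 to 4.21 for the remaining D50A and 2.68 to 4.17 in the WT libraries. That of Mrps18a to Mrps18b was 18.8 in D50A 3 against 4.30 to 6.31 in the other 7. Exons of Mrps18b overlap an annotated gene on the opposite strand, Gm16279, and without a stated strand setting reads from the 2 cannot be told apart.

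The promoters of these paralogs, of Mrpl12 and of Mrps2 are printed because the paralogs differ in D50A 3, where Mrpl12 has the highest and Mrps2 the lowest ratio of the family, and promoters of nuclear genes for mitochondrial proteins are known for sites of NRF1, of the ETS factor GABP (also called NRF2) and of YY1. Each sequence is read 5′ to 3′ on the gene's strand, from 250 bases before to 50 bases after the start of the RefSeq transcript (GRCm38.p6, mm10 coordinates), and capitals mark matches on either strand to the motifs searched. The motifs were the ETS core CCGGAA, the NRF1 core GCGCNTGCG, the YY1 core AAGATGG, the CCAAT box and the TATA box TATAAA.
Mrpl12, chr11:120484387-120484686, plus strand: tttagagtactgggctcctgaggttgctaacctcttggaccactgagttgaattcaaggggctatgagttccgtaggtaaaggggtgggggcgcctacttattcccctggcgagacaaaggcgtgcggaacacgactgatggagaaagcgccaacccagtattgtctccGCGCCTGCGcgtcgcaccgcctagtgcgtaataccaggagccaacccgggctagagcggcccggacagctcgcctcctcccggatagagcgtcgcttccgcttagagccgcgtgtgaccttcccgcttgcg
Mrps18a, chr17:46110754-46111053, plus strand: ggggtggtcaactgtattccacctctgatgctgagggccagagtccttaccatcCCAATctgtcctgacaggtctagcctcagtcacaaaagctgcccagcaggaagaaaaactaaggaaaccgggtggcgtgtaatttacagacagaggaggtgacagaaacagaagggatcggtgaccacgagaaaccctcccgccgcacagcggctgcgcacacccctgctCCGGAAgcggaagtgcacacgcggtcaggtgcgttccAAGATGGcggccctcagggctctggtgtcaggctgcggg
Mrps18b, chr17:35916391-35916690, minus strand: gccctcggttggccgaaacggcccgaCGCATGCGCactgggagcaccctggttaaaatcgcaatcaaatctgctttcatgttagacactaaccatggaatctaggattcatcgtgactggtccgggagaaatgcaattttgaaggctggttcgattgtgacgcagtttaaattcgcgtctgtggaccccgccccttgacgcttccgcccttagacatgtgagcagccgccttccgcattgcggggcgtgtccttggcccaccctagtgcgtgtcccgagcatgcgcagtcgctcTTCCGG
Mrps18c, chr5:100798509-100798808, plus strand: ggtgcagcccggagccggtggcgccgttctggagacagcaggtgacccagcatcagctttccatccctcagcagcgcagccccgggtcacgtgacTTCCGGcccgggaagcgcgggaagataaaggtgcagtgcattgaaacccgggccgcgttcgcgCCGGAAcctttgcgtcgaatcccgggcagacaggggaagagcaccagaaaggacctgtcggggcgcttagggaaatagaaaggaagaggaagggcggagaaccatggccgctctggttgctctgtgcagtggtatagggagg
Mrps2, chr2:28467816-28468115, plus strand: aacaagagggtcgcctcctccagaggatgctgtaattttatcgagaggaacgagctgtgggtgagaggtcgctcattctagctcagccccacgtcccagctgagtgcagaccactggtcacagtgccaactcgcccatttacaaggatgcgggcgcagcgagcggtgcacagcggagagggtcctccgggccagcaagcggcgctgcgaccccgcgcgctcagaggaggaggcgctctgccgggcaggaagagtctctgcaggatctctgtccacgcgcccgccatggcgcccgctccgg
Mrpl12 holds 1 NRF1 core, Mrps18a 1 each of the ETS core, the YY1 core and the CCAAT box, Mrps18b 1 NRF1 and 1 ETS core, Mrps18c 2 ETS cores, and Mrps2 none of the 5 motifs. Of the 66 members with a promoter in the table, 37 (56.1%) held the ETS core, beside 25.7% of the 11654 promoters of tested genes. The NRF1 core was found in 18 members (27.3%) against 12.7%, and the YY1 core in 13 (19.7%) against 6.88%. The CCAAT box was as frequent in members (37.9%) as in all promoters (37.8%), and the TATA box was in 4 members (6.06%) against 7.22%. A match is a description of letters and not of binding. Members with and without the ETS core had medians in D50A 3 of 1.68 and 1.70, and the largest gap between such medians was for the CCAAT box, 1.42 with and 1.70 without it.

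CSTF2 acts at 3′ ends, so the poly(A) signals of the paralogs are given as well, from the signal (capitals) to the annotated transcript end or, for Mrps18c, over its first 30 bases.
Mrps18a, chromosome 17: AATAAAgcaggctcttggcttccc
Mrps18b, chromosome 17: AATAAAgctgtgtctcttcacccgtt
Mrps18c, chromosome 5: AATAAAcctctaagtggttgtcagcagact
All 3 paralogs carry AATAAA, in the members that were high in D50A 3 and in the one that was not. In the last 40 bases of the longest transcript, 42 of 75 members (56.0%) held AATAAA, 11 (14.7%) only ATTAAA and 22 (29.3%) neither, beside 62.1%, 14.6% and 23.3% of 14878 tested protein-coding genes. Mrpl12 and Mrps2, the extremes in D50A 3, held neither. Counts per gene do not show which poly(A) site was used.

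Members are short genes, and within the family the ratio in D50A 3 was lower in genes with longer coding sequences. Their median coding length was 576 bases, from 189 for Mrpl52 to 1326 for Mrps30, against 1389 bases for 14893 tested coding genes. Across the 75 members with a length, Spearman's rho between coding length and the log2 ratio in D50A 3 was -0.50, and over all tested genes with a length it was -0.61, a description over genes that share 1 library and are not independent replicates. By coding length, the 25 shortest members were at a median 3.69-fold the WT mean, the middle 25 at 3.36-fold and the 25 longest at 2.23-fold. All 3 members below the WT mean were among those 25 longest. Grouped by transcript length instead, the median log2 ratios did not fall steadily: 1.93, 1.40 and 1.67 from shortest to longest. Over all coding genes the median log2 ratio in D50A 3 went from 1.34 to -1.74 between the first and the last of 10 bins of rising length. The first bin, with coding lengths up to 519 bases, held 30 of the members, and the last 5 bins held none. Set against genes of their own bin, 64 of the 75 members lay above the bin's median, 43 of them (57.3%) above its upper quartile, and the median excess over the bin's median was 0.77 on the log2 scale. In D50A 1, D50A 2 and D50A 5 the same rho over members was 0.11, 0.11 and -0.07, and in D50A 4 it was -0.27. Over all tested genes it was -0.04, -0.12 and -0.22 in D50A 1, D50A 2 and D50A 5, and -0.32 in D50A 4. In WT 1, WT 2 and WT 3 the rho over all genes was 0.20, -0.19 and -0.05. How far coding length accounts for the members' values in D50A 3 was not tested. The fit with length and GC offsets used the length of the longest transcript, not coding length. It lowered the member median with all 8 libraries from 0.56 to 0.19.

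**Figure D3:**
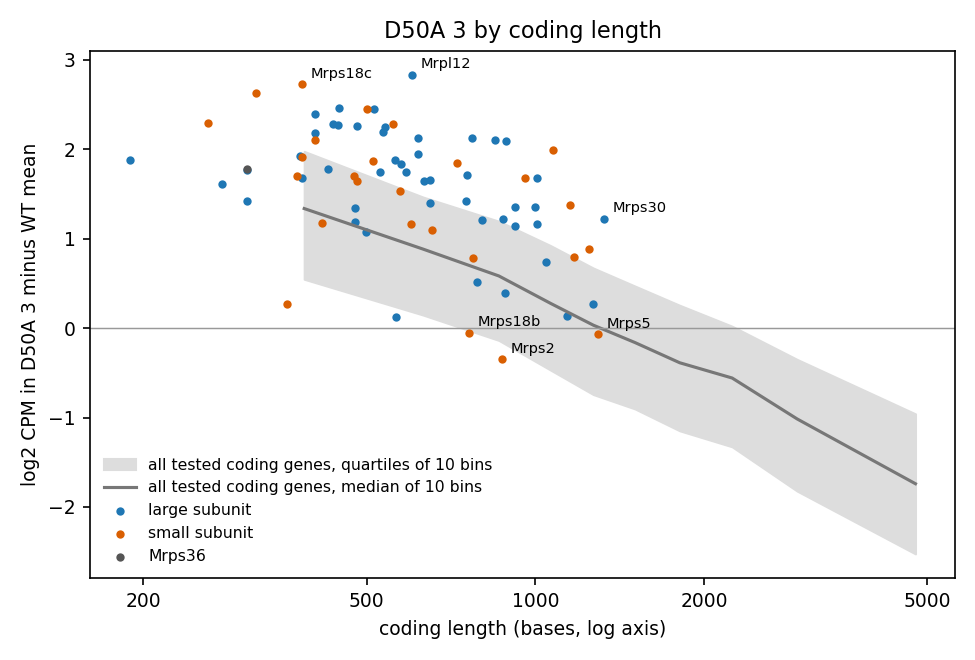
Log2 ratio to the WT mean in D50A 3 against coding length in bases (log axis) for the members (points) and, as a line of medians and a band of quartiles, for 10 bins of all tested coding genes. The bins descend from 1.34 to -1.74, and the members lie at coding lengths of 189 to 1326 bases.

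With all 8 libraries the median log2 fold change of the members, D50A over WT, was 0.56 beside -0.01 over all 16810 tested genes, and 75 of 76 members (98.7%) were positive beside 48.6% of all genes. No member passed: edgeR's quasi-likelihood test with Benjamini-Hochberg adjustment called 0 members and 0% of all genes higher and 0% lower, and 0 members had an unadjusted p under 0.05, beside 2.5% of all genes (420). DESeq2 called 0 members, with 12 left without an adjusted p, and limma-voom with sample weights called 0, while they called 40 and 517 genes in all. By limma-voom 5 members had an unadjusted p under 0.05, beside 20.3% of all genes (3406). Among the named members, the largest fold changes had large errors, with 1 of 5 D50A libraries far from the others: Mrpl12 had 1.20 ± 0.75 (SE) and Mrps18c 1.123 ± 0.72. Those of Mrps24 and Mrpl23 were 0.998 ± 0.62 and 0.98 ± 0.63. The smallest adjusted p of a member by edgeR was 0.837, and it ran from 0.0367 to 0.965 over the alternatives. The median coefficient of variation of the members over the D50A mice was 66.6% with D50A 3 and 7.65% without it. On counts simulated with edgeR's spread per gene over these 8 libraries (16810 genes), edgeR called 0% of the 1.5-fold and 0% of the 2-fold changes. That spread includes D50A 3 and was given to every library, WT included. The simulation thus shows what edgeR could detect at that spread, not at the smaller spread of the other libraries.

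Without D50A 3 the 4 D50A and 3 WT libraries differed little in these genes. The median log2 fold change of the members was 0.07, beside -0.00 over 16754 tested genes, with 69 of 76 members (90.8%) positive beside 49.4% of all genes, and single members ran from -0.06 (Mrps2) to 0.21 (Mrpl13). The medians of the 4 D50A libraries had an SD of the same size, 0.066, which is a spread between single mice and not an error of that median. edgeR's quasi-likelihood test again called 0 members, 0% of all genes higher and 0% lower, and the smallest adjusted p (Benjamini-Hochberg) was 0.465, for Mrpl39, with 0.0367 to 0.769 over the alternatives. An unadjusted p under 0.05 was found for 4 members (5.26%), beside 9.39% of all genes (1574), a share no higher than the background. DESeq2 called 0 members and limma-voom 0, and 161 and 509 genes in all. An unadjusted p under 0.05 was found for 0 members by DESeq2, beside 1275 of all genes, and for 10 by limma-voom, beside 20.1% of all genes (3361). In simulated counts for this comparison (16754 genes) 84% of the 1.5-fold and 100% of the 2-fold changes were called, with 16 unchanged genes called too. In both simulations the changes were placed only in genes with a mean above 10 CPM. Changes as small as the members' log2 fold changes of -0.06 to 0.21 were not simulated, so their detection is not shown.

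The 4 members with the smallest p-values encode proteins of the large subunit. Mrpl39, a mitochondria-specific protein, had 25.1, 26.7, 53.1, 28.4 and 26.7 CPM in D50A 1 to 5 and 24.9, 23.03 and 23.3 CPM in WT 1 to 3, a log2 fold change without D50A 3 of 0.18 ± 0.07 (SE). Mrpl9, a homolog of a bacterial protein, had 42.5, 43.3, 90.8, 44.3 and 44.3 CPM in D50A 1 to 5 and 36.4, 39.5 and 41.8 CPM in WT 1 to 3, a log2 fold change of 0.16 ± 0.07. Mrpl21, also with a bacterial homolog, had 20.8, 21.9, 61.1, 21.4 and 21.7 CPM in D50A 1 to 5 and 19.1, 19.2 and 19.8 CPM in WT 1 to 3, a log2 fold change of 0.15 ± 0.07. In these 3 genes the D50A values were all higher than the WT values, but the lowest D50A and the highest WT library lay close together. Mrpl13, whose bacterial homolog is an early assembly protein, had 27.6, 30.3, 125, 32.6 and 34.8 CPM in D50A 1 to 5 and 26.3, 28.1 and 27.5 CPM in WT 1 to 3. Its D50A 1 value lay within the WT range and the other 4 above it, and its log2 fold change without D50A 3 was 0.21 ± 0.09. When D50A 1 was left out as well, Mrpl13 was the only member called (log2 fold change 0.27, adjusted p = 0.0367 by edgeR with Benjamini-Hochberg adjustment), where 3.36% of all tested genes were called higher and the 3 remaining D50A libraries all had high cerebellar markers, whose part in this call was not tested. Exons of Mrpl13, Mrpl9 and Mrpl21 overlap Mtbp, Oaz3 and Ighmbp2 on the opposite strand, and the reads of these pairs cannot be told apart.

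**Figure D4:**
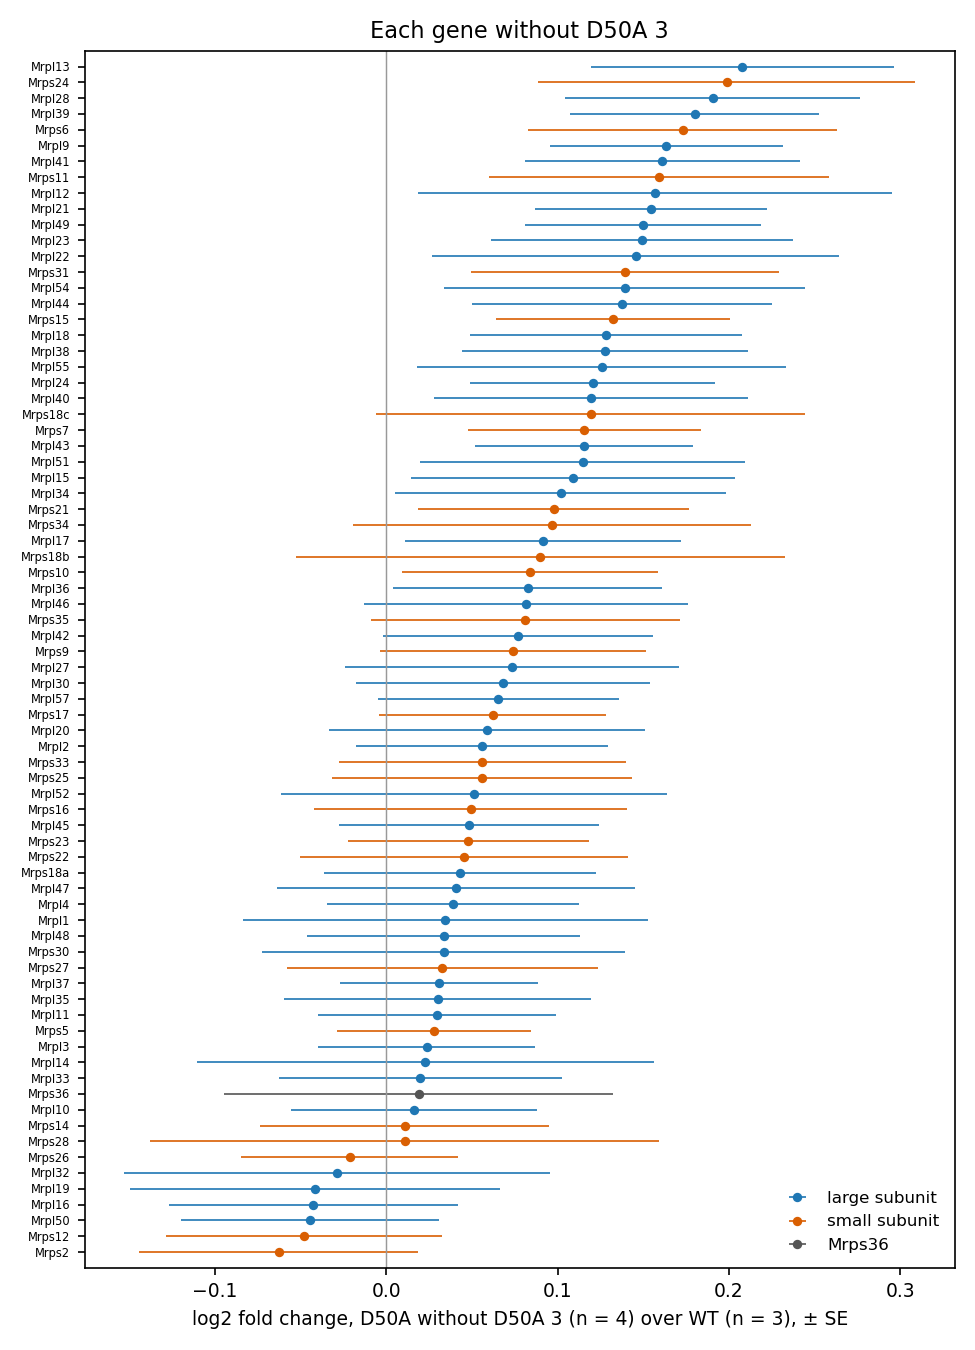
Log2 fold change (D50A over WT, without D50A 3) of each of the 76 members with its standard error, ordered by value and coloured by subunit. The values run from -0.06 (Mrps2) to 0.21 (Mrpl13), and bars extend 1 SE to each side.

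In all, 7 members (9.21%) had D50A values that were all higher than the WT values: Mrpl9, Mrpl21, Mrpl39, Mrpl43 and Mrpl49 of the large and Mrps6 and Mrps15 of the small subunit. Among all tested genes this was so for 3.22% with 5 D50A libraries and 4.79% with 4. The same 7 members were found in both cases, which adds no support, because D50A 3 was above every WT library in each of them. D50A 3 lay below the WT mean in 52.9% of all genes and 3.95% of members, so the share with 4 libraries is the closer comparison. No member had D50A values all lower than the WT values, beside 4.24% and 5.8% of all genes. Mrpl49, a mitochondria-specific protein, had 35.4, 36.1, 67.6, 35.1 and 34.8 CPM in D50A 1 to 5 and 32.2, 34.4 and 29.7 CPM in WT 1 to 3. Mrps15, which binds the small rRNA, had 29.9, 31.5, 48.4, 31.6 and 29.7 CPM in D50A 1 to 5 and 29.4, 28.5 and 26.6 CPM in WT 1 to 3, and Mrps6 had 11.5, 11.2, 32.9, 11.3 and 11.2 CPM in D50A 1 to 5 and 10.2, 10.8 and 9.27 CPM in WT 1 to 3. The gaps were narrow: in Mrps15 the lowest D50A library was 29.7 CPM and the highest WT library 29.4 CPM. With RLE, upper-quartile and library-total scaling the number was 8, 11 and 9 with 5 D50A libraries, beside 3.96%, 4.6% and 3.84% of all genes. With 4 D50A libraries it was 8, 11 and 11, beside 5.61%, 6.45% and 7.04% of all genes. Mrpl43 and Mrps6 were named here after their values were seen.

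The 2 subunits had similar medians. The ratio of large-subunit to small-subunit counts was 2.08, 2.08, 2.16, 2.09 and 2.11 in D50A 1 to 5 and 2.04, 2.05 and 2.11 in WT 1 to 3, so D50A 3 had the highest ratio of the 8 libraries. The median log2 fold change was 0.58 in the large and 0.55 in the small subunit with all 8 libraries, and 0.08 and 0.07 without D50A 3. Members with bacterial homologs (46) and mitochondria-specific members (29) likewise had 0.60 and 0.52 with all 8 and 0.07 and 0.08 without D50A 3.

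The mitochondrial ribosome was set beside the cytosolic one and its own products' partners. In D50A 3 the 75 tested cytosolic ribosomal protein genes had a median 7.11-fold the WT mean, the 79 nuclear genes of oxidative phosphorylation 4.17-fold and the 12 tested mitochondrially encoded mRNAs 3.45-fold, against 3.22-fold for the members. The count ratio of cytosolic to mitochondrial ribosomal protein genes reached 15.3 in D50A 3, while the rest of the libraries held 6.11 to 6.87. That of oxidative phosphorylation to mitochondrial ribosomal protein genes reached 6.55 there and lay at 5.07 to 5.34 elsewhere. Without D50A 3 the median log2 fold changes were 0.05 for cytosolic ribosomal proteins, 0.11 for oxidative phosphorylation, -0.00 for the mitochondrially encoded mRNAs and 0.07 for the members, and edgeR called none in any of these lists. The difference between the lists was not tested, nor was the part of coding length in their D50A 3 values.

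**Figure D5:**
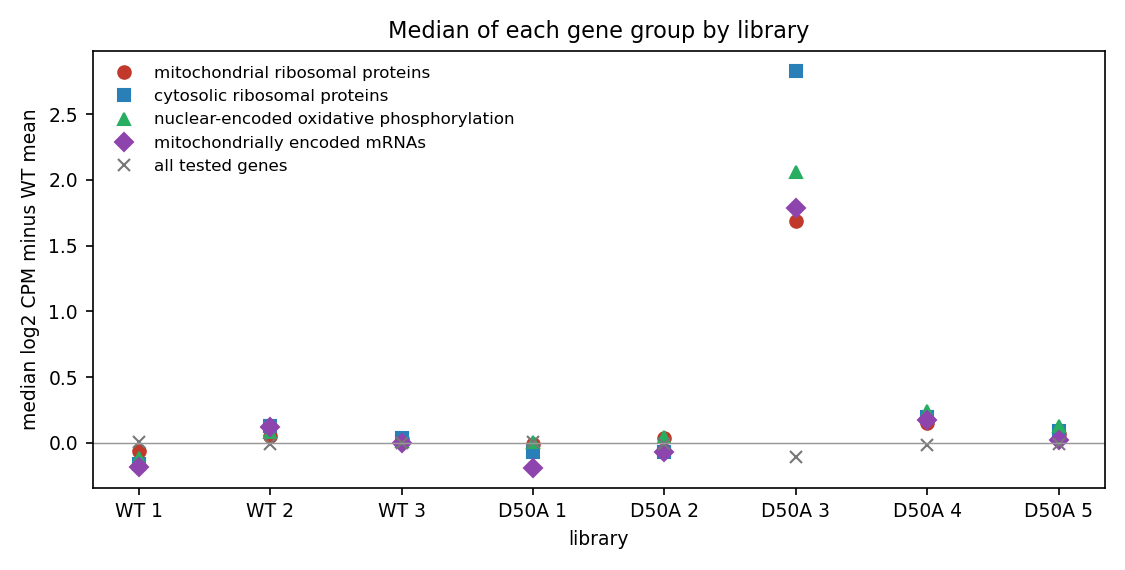
Median log2 ratio to the WT mean in each library for mitochondrial ribosomal proteins, cytosolic ribosomal proteins, nuclear oxidative phosphorylation genes, mitochondrially encoded mRNAs and all tested genes; each symbol is 1 median. Outside D50A 3 the medians lie between -0.19 and 0.25, and in D50A 3 mitochondrial ribosomal proteins lie at 1.69 and cytosolic ones at 2.83.

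Other genes of the pathway were less uniform in D50A 3. The 6 mitoribosomal proteins with other symbols resembled the members, with a median 3.31-fold the WT mean, while the 24 genes of mitoribosome assembly and rRNA modification were at 1.81-fold and the 14 of mitochondrial transcription and mRNA stability at 1.54-fold. The 12 translation factors were at 1.14-fold, the 20 genes charging mitochondrial tRNAs at 0.827-fold and the 9 regulators of mitochondrial biogenesis at 0.863-fold. In D50A 3 the median log2 ratio of all coding genes fell with coding length, from 1.34 to -1.74 over 10 bins. The lengths of these lists were not compared, so the part of length in their order was not tested. No gene of these 6 lists passed edgeR's test in either direction, with or without D50A 3, and 3 of 85 tested (3.53%) had an unadjusted p under 0.05 without it, a share below the 9.39% of all genes. Of those, Ict1, a peptidyl-tRNA hydrolase built into the large subunit, had 31.4 ± 1.35 CPM in 4 D50A libraries and 26.99 ± 2.03 CPM in 3 WT libraries (mean ± SD), a log2 fold change of 0.23 ± 0.07 (SE). Aurkaip1, a small-subunit protein, had 57.1 ± 3.61 and 49.7 ± 2.58 CPM, a log2 fold change of 0.21 ± 0.07, and Esrra, a nuclear receptor that drives mitochondrial genes, had 63.9 ± 1.34 and 57.5 ± 2.501 CPM, a log2 fold change of 0.16 ± 0.06. In 5 of the 85 genes (5.88%) the 4 D50A values without D50A 3 were all higher than the WT values and in 1 (1.18%) all lower, beside 4.79% and 5.8% of all genes.

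The remaining named genes of these lists had values without D50A 3 that did not pass either. The elongation factor Tsfm had a log2 fold change of 0.14 ± 0.08 and the release factor Mtrf1 0.16 ± 0.12. Among the tRNA synthetases Iars2 had -0.14 ± 0.07 and Lars2 0.15 ± 0.08. The assembly factors Mterfd2 (also Mterf4) and Eral1 had 0.17 ± 0.11 and 0.15 ± 0.09, the RNA granule protein Grsf1 0.08 ± 0.06, the tRNA-processing nuclease Elac2 -0.12 ± 0.09, and the coactivator Pprc1 -0.09 ± 0.09. In D50A 3 Pprc1 had 3.98 CPM, where no other library had less than 20.5 CPM, the opposite of the members. The part of its length in this was not tested.

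Some members lie close to other genes. A protein-coding gene starting head to head within 500 bases was found for 18 of 75 members (24%), beside 8.9% of 14878 tested protein-coding genes. Exons of 20 members (26.7%) overlapped a gene on the opposite strand, among them Mrpl10, Mrpl12, Mrpl49 and Mrps30, and their counts carry the same limit as those of Mrpl13 and Mrps18b.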

How the data were processed

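The authors deposited unnormalized read counts for 25815 genes in 8 libraries. The submitters' processing notes name STAR 2.5, HTSeq 0.6.1, CASAVA 1.8 and DESeq2 2 in no stated order, with mm10 as build. The sources used here do not give the annotation release or the strand setting of the counting. Groups came from the genotype label. The replicate numbers are in accession order and pair no mice, and a p-value reflects only how much these single libraries vary.

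The whole table was fitted with edgeR 4.0.16 in R 4.3.3 (filterByExpr, TMM scaling, quasi-likelihood test, Benjamini-Hochberg threshold 0.05), with all 8 libraries (16810 genes tested) and without D50A 3 (16754), and log2 values used a prior count of 2. CPM values are TMM-scaled. Standard errors were derived from the fold change and its test statistic. The fit was tested on simulated counts. Alternatives used DESeq2 1.42.0, limma 3.58.1 (voom), sva 3.50.0 with 1 surrogate variable, other scalings, other filters (none, or 1 CPM in 3 libraries), length and GC offsets, a threshold of 0.1, and libraries left out.

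Positions, lengths (longest basic protein-coding transcript) and neighbours came from GENCODE M21 on mm10, which matched 25484 gene IDs and 75 members, all but Mrpl33. Promoters came from RefSeq (GRCm38.p6), which held 66 of the 76 members. The genes named are the 8 members with the smallest p in each comparison, the 3 highest and 3 lowest per kb, landmark members of each role, and from each of 6 pathway lists the 2 genes with the smallest p without D50A 3. The members and lists were chosen with earlier results of these data known, and the list of oxidative phosphorylation genes was corrected after the table was read.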

Additional observations from a re-analysis of the deposited data

Results flagged for a closer look

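Among the 5 D50A libraries, D50A 3 was separated from the rest by more than Dixon's 95% critical value for 5 libraries (0.71), always as the highest, in 28 of the 29 results examined this way and in 69 of the 76 members. Chance alone flags about 1 in 20 independent groups, but these results share 1 mouse and cannot be set against that rate. The share of all genes past the critical value was not counted. In D50A 3, 20.3% of all tested genes were 2-fold or more above the WT mean. The gap of D50A 3 to its nearest neighbour took 0.908 of the whole range for the median log2 ratio of the members. Among the members in these 29 results, in CPM, the share was widest in Mrpl21 (0.974), Mrpl9 (0.963), Mrps21 (0.96), Mrpl49 (0.959), Mrps35 (0.952) and Mrpl45 (0.949). Among the other genes named Mrpl it was found in Mrpl11 (0.948), Mrpl20 (0.948), Mrpl23 (0.946), Mrpl28 (0.938), Mrpl41 (0.936), Mrpl17 (0.933), Mrpl12 (0.926), Mrpl13 (0.926), Mrpl3 (0.912), Mrpl39 (0.884), Mrpl44 (0.882) and Mrpl10 (0.76). Among those named Mrps it was found in Mrps16 (0.945), Mrps18c (0.938), Mrps22 (0.931), Mrps18a (0.928), Mrps24 (0.918), Mrps12 (0.907), Mrps15 (0.895), Mrps36 (0.894) and Mrps30 (0.884). Mrps18b was the 1 of the 29 results that did not exceed the critical value. Mrps2, Mrps5, Mrpl43 and Mrps6, named after their values were seen, were not among the 29. Each of these values rests on 1 mouse. The markers of neurons, glia, blood and choroid plexus given in the results were also highest in D50A 3, and the endothelial markers were lowest. Their part was not tested.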

How the results depend on the processing

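The absence of called members held under every alternative run except one: without D50A 1 and D50A 3, 1 member (Mrpl13) was called, so that leaving out 1 library in turn gave 0 to 1 called members when D50A 3 was already out. The member median with all 8 libraries (0.56) stayed positive but was 0.088 with limma-voom, 0.16 with 1 surrogate variable, 0.19 with length and GC offsets, 0.098 without D50A 1 and D50A 3, and 0.074 to 0.72 with 1 library left out, the lowest without D50A 3. Without D50A 3 the median (0.07) ran from 0.038 to 0.098 over all alternatives. The lowest values were 0.0378 with length and GC offsets and 0.0381 when D50A 4 was left out as well. Of single log2 fold changes, 11 of the alternative values with all 8 libraries and 20 without D50A 3 had the other sign, none past the threshold, and the cause was not tested.

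With all 8 libraries, length and GC offsets gave -0.0248 for Mrpl10, -0.107 for Mrps12, -0.0374 for Mrps15, -0.16 for Mrps18b and -0.0406 for Mrps36. limma-voom gave -0.0263 for Mrpl10 and -0.0414 for Mrps12, and the fit without D50A 1 and D50A 3 gave -0.0149 and -0.0205. With 1 library left out, Mrps12 ran from -0.0478 to 0.402 and Mrps18b from -0.0475 to 0.197. Without D50A 3, length and GC offsets gave -0.0253 for Mrpl10, -0.0249 for Mrpl20, -0.0299 for Mrps18a, -0.00407 for Mrps21, -0.014 for Mrps22 and -0.0716 for Mrps36. For Mrpl10, limma-voom gave -0.0148 and the surrogate variable -0.00219. With a further library left out the values ran from -0.0333 to 0.0439 for Mrpl10, -0.00266 to 0.0651 for Mrpl11, -0.00504 to 0.119 for Mrpl20, -0.00735 to 0.0464 for Mrpl3 and -0.0246 to 0.0896 for Mrpl45. Those of the Mrps genes ran from -0.0112 to 0.0992 for Mrps16, -0.0114 to 0.234 for Mrps18b, -0.038 to 0.084 for Mrps30 and -0.0557 to 0.0948 for Mrps36. Leaving out D50A 1 and D50A 3 together is, for the comparison without D50A 3, the same fit as leaving out D50A 1. No paired analysis was possible because the labels give no replicate numbers shared by the groups. Depth limits the precision most for Mrps18b, the member with the lowest counts.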
